A study of Homo sapiens with 36 samples.

Results

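The UHRF1-AID/DNMT1-AID line, in which both UHRF1 and DNMT1 can be degraded at will, was sampled after 6 and after 8 days of depletion, and the question addressed here was how its expression differed from that of WT cells at the later time compared with the earlier one. Of the 36 RNA-seq libraries in the series, 12 entered this comparison, in 4 groups of 3 libraries: UHRF1-AID/DNMT1-AID on day 8, WT on day 8, UHRF1-AID/DNMT1-AID on day 6 and WT on day 6. All were HCT116 cells, an established colorectal cancer cell line, and libraries were made from polyA RNA. In the degron line both proteins carry an auxin-inducible degron (AID), a tag that OsTIR1, a plant F-box protein, marks for destruction once auxin is added. OsTIR1 is expressed in every line, WT included, from a doxycycline-inducible promoter. Every culture, WT included, received doxycycline at 2 μg/mL with the OsTIR1 inhibitor auxinole at 20 μM for 1 day, and then doxycycline with auxin at 500 μM for 6 or 8 days. Untreated cells were not analysed here, so each day had its own WT as the only reference. The degron lines were generally represented by separate clones, but the labels name no clone for any library, and p-values measure only the spread between these libraries.

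UHRF1 recognises hemimethylated DNA behind the replication fork and recruits DNMT1, which copies the methyl marks onto the new strand. Without either of them, methylation is diluted at each round of replication, so genes that are held silent by methylated promoters can be expressed and cells that keep dividing lose more marks. In cultured cells, withdrawal from the cell cycle is accompanied by lower mRNA of the E2F-controlled replication genes and of the mitosis genes controlled by the DREAM and MMB complexes, and senescent cells can secrete cytokines and proteases, the senescence-associated secretory phenotype (SASP).

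Values are given as CPM, the reads of a gene relative to the reads of its library, scaled to a fixed total and by the trimmed mean of M-values (TMM). The effect is the log2 ratio of UHRF1-AID/DNMT1-AID to WT on the same day, and the change of effect is the effect on day 8 minus that on day 6. Both come from edgeR's quasi-likelihood model with their standard error, and adjusted p-values are two-sided Benjamini-Hochberg values over all 15415 protein-coding genes tested. A gene is called when its adjusted p is under 0.05. Errors beside CPM are standard deviations over 3 libraries.

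The 12 libraries held from 21588262 to 30559549 reads in genes. Replicates were less alike in UHRF1-AID/DNMT1-AID on day 8, where replicate 3 stood apart (chi-squared per degree of freedom 28.3 and 36.6 against the other replicates), than in WT (3.69 to 8.58). On day 8 the protein-coding genes of the mitochondrial genome took 8.8%, 9.29% and 6.7% of the reads in UHRF1-AID/DNMT1-AID and 2.52%, 3.16% and 3.33% in WT. On day 6 they took 3.59%, 3.02% and 4.03% in UHRF1-AID/DNMT1-AID and 3.17%, 3.07% and 3.56% in WT. Mitochondrial ribosomal and transfer RNA genes were not part of this share. The TMM factors were 0.912 to 0.951 in UHRF1-AID/DNMT1-AID and 1.05 to 1.07 in WT on day 8, and 1.14 to 1.20 in UHRF1-AID/DNMT1-AID and 1.14 to 1.15 in WT on day 6. Of 10 epithelial colorectal markers, 9 were at 1 CPM or more in each of the 4 groups. Summed fibroblast markers came to 38.6 to 57.4 CPM in UHRF1-AID/DNMT1-AID and 19.2 to 22.9 CPM in WT on day 8, and to 65.9 to 85.7 CPM in UHRF1-AID/DNMT1-AID and 37.8 to 41.8 CPM in WT on day 6. Summed leukocyte markers came to 15.5 to 22.1 CPM in UHRF1-AID/DNMT1-AID and 26.8 to 36.7 CPM in WT on day 8, and to 20.5 to 27.4 CPM in UHRF1-AID/DNMT1-AID and 35.2 to 39.2 CPM in WT on day 6. The part of these differences in the results below was not tested.

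The mRNAs of the tagged genes themselves were measured first. UHRF1 mRNA (ENSG00000276043, chromosome 19, 4903080 to 4962154) stood at 67.2, 39.3 and 75.6 CPM in UHRF1-AID/DNMT1-AID and 148, 151 and 147 CPM in WT on day 8, and at 86.3, 146 and 189 CPM in UHRF1-AID/DNMT1-AID and 127, 125 and 124 CPM in WT on day 6. All 3 degron libraries lay below all 3 WT libraries on day 8, while on day 6 they lay on both sides of WT. The effect on UHRF1 was -1.29 on day 8 and 0.16 on day 6, and its change of -1.46 ± 0.35 was called (adjusted p = 0.00238). With the replicate numbers as a block within each day the adjusted p was 0.0607. DNMT1 mRNA stood at 53.4, 46.2 and 32.6 CPM in UHRF1-AID/DNMT1-AID and 191, 210 and 195 CPM in WT on day 8, and at 79.4, 80.3 and 54.4 CPM in UHRF1-AID/DNMT1-AID and 227, 222 and 231 CPM in WT on day 6. The degron libraries were below WT on both days, with effects of -2.18 and -1.67, and the change of -0.51 ± 0.29 was not called (adjusted p = 0.192). It was called with a replicate block (adjusted p = 0.0331), with a block within each line (adjusted p = 0.000104) and with a block and offsets for GC content and length (adjusted p = 0.0218). Neither mRNA reports how much protein was left, since the degron acts on the protein.

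Across the transcriptome, the effect against WT was larger on day 8. On that day 10559 genes (68.5% of those tested) were called between UHRF1-AID/DNMT1-AID and WT, compared with 6304 genes (40.9%) on day 6. The change of effect was called as higher for 2520 genes (16.3%) and as lower for 2413 genes (15.7%). Above 2-fold there were 580 genes with a higher effect on day 8 (3.76%) and 401 with a lower effect (2.6%), which became 636 and 455 without replicate 3 of the day 8 degron libraries. Scaling by library size alone shifted the median change of effect by -0.232 on the log2 scale and gave 294 higher and 777 lower genes in place of 580 and 401. Offsets for GC content and length gave 336 and 385. The balance of higher and lower calls therefore depends on the scaling, and every direction given below is relative to the TMM scaling.

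The changes came mainly from the degron line and less from WT. Within UHRF1-AID/DNMT1-AID 9283 genes (60.2%) were called between day 8 and day 6, and within WT 5322 genes (34.5%). Of the 401 genes with a lower effect above 2-fold, 397 were called lower on day 8 than on day 6 within UHRF1-AID/DNMT1-AID and 0 were called higher, and their median difference between the days was -1.47 in UHRF1-AID/DNMT1-AID and -0.04 in WT on the log2 scale. The 580 genes with a higher effect were more mixed. In 434 of them UHRF1-AID/DNMT1-AID was called higher on day 8 than on day 6, while 124 were not and instead fell in WT. These comparisons share libraries with the change of effect, so the counts describe it and are no separate evidence. Of the 580 genes, 44 had 3 reads or fewer in a WT group, where the fitted size depends on the small count added by the model.

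In both sets most genes stood apart from WT on day 8. Among the 401 genes, 388 were called below WT on day 8, beside 5060 of all 15415 genes tested. Among the 580 genes, 556 were called above WT on day 8, beside 5499 of all genes. On day 6, 237 of the 401 and 336 of the 580 were not called against WT. These shares lay close to that of all genes tested, of which 9111 were not called on day 6. A full turn of direction was less frequent: 74 genes were called higher than WT on day 6 and lower on day 8, 40 of them with a change above 2-fold, and 135 genes were called lower on day 6 and higher on day 8, 18 of them with a change above 2-fold.

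The genes of mitosis fell together on day 8. All 62 tested members of the mitosis list, which holds cyclins and kinases of mitotic entry, spindle checkpoint and kinetochore proteins, motor proteins and cytokinesis factors, had a lower effect on day 8 than on day 6, and 53 of them by more than 2-fold. Their median change of effect was -1.57, with a range of -2.24 to -0.37, beside a median of 0.05 over all genes tested, and the degron libraries of day 8 and of day 6, each set against the WT mean of its day, did not overlap for any of the 62, beside 8383 of all 15415 genes. Summed over the list, expression was 1959, 1657 and 2123 CPM in UHRF1-AID/DNMT1-AID and 4709, 4669 and 4528 CPM in WT on day 8, and 5291, 4773 and 5062 CPM in UHRF1-AID/DNMT1-AID and 4589, 4332 and 4503 CPM in WT on day 6. On day 6, then, each degron library was above each WT library, and on day 8 each was below. Of the members, 61 were called lower than WT on day 8, whereas on day 6 23 were called higher and 2 lower. Among all 15415 genes, 5060 were called lower on day 8, and on day 6 2932 were called higher and 3372 lower. In bulk libraries, fewer cells in mitosis and less of these mRNAs per cell cannot be told apart. All 62 remained called as lower under scaling by library size and without replicate 3 of the day 8 degron libraries, and 61 with offsets for GC content and length.

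PLK1, the kinase that drives mitotic entry and spindle assembly (chromosome 16, 23677656 to 23690367), had the lowest change of effect in the list. It stood at 46.3, 36.5 and 49.8 CPM in UHRF1-AID/DNMT1-AID and 155, 183 and 167 CPM in WT on day 8, and at 160, 155 and 179 CPM in UHRF1-AID/DNMT1-AID and 135, 127 and 136 CPM in WT on day 6. The degron libraries were lowest on day 8 and above every WT library on day 6. The change of effect was -2.24 ± 0.15 (adjusted p = 4.83e-13). BUB1, a kinase of the spindle checkpoint, stood at 22.5, 19.7 and 27.9 CPM in UHRF1-AID/DNMT1-AID and 83.9, 86.3 and 82.2 CPM in WT on day 8, and at 120, 104 and 114 CPM in UHRF1-AID/DNMT1-AID and 97.8, 86.2 and 88.2 CPM in WT on day 6. It followed the order of PLK1, with no overlap between the lines on either day, and its change of effect was -2.16 ± 0.14 (adjusted p = 3.86e-13).

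CCNA2 encodes cyclin A2, which is needed in S phase and at mitotic entry. It stood at 29.5, 25.8 and 29.5 CPM in UHRF1-AID/DNMT1-AID and 120, 111 and 105 CPM in WT on day 8, and at 89, 80.2 and 83.6 CPM in UHRF1-AID/DNMT1-AID and 87.3, 84.9 and 83.9 CPM in WT on day 6. The lines overlapped on day 6 and were separated on day 8, and the change of effect was -1.97 ± 0.13 (adjusted p = 4.53e-13). ECT2, the exchange factor that starts the contractile ring, stood at 17.9, 18 and 24.2 CPM in UHRF1-AID/DNMT1-AID and 91, 81.2 and 79 CPM in WT on day 8, and at 105, 91.2 and 99 CPM in UHRF1-AID/DNMT1-AID and 103, 92.8 and 92.5 CPM in WT on day 6. As with CCNA2, only the day 8 libraries were separated, with a change of effect of -2.09 ± 0.13 (adjusted p = 1.6e-13). The kinesin KIF14 of the list and, outside it, the mitotic histone kinase HASPIN and the spindle proteins FAM83D and CKAP2L were among the 12 genes of lowest change over the whole transcriptome, at -2.16, -2.26, -2.52 and -2.29.

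Promoters of several of these genes are shown because short sequence elements known from cell cycle genes could be looked up in them: the CCAAT box, bound by NF-Y, and the cell cycle homology region, a DREAM and MMB site, searched as TTTGAA or TTCGAA. Each line gives the 150 bases before the RefSeq start on GRCh38.p14, 5′ to 3′ on the strand of the gene. Capitals mark matches on either strand, and a CCAAT of ECT2 that runs past the end of its stretch is left in lower case. The stretches are chr16:23678739-23678888 (plus strand) for PLK1, chr2:112764610-112764759 (minus strand) for CKAP2L and chr3:172750576-172750725 (plus strand) for ECT2.
PLK1: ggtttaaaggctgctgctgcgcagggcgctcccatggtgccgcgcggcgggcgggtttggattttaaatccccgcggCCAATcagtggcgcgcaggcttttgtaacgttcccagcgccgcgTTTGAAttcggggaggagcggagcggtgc
CKAP2L: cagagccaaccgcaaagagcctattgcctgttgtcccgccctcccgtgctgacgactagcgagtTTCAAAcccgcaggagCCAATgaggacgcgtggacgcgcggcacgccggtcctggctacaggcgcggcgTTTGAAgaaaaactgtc
ECT2: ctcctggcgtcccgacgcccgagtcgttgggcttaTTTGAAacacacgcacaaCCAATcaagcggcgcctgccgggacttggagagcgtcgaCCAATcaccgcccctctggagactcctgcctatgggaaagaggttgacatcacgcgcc

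In PLK1 the CCAAT lay 73 to 69 bases and the TTTGAA 29 to 24 bases before the start. Over the RefSeq promoter table (250 bases before to 50 after the start, both strands), TTTGAA or TTCGAA occurred in 38 of the 54 mitosis genes with a promoter entry (70.4%) and in 11.1% of the 11938 tested genes with an entry. It was held by 38.5% of the genes with a lower effect above 2-fold and by 11.5% of those with a higher effect. CCAAT was held by 72.2% of the mitosis genes, 50.2% of the genes with a lower effect, 33.9% of those with a higher effect and 36.4% of all. A match is a string of letters and was not tested as a binding site.

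**Figure D1:**
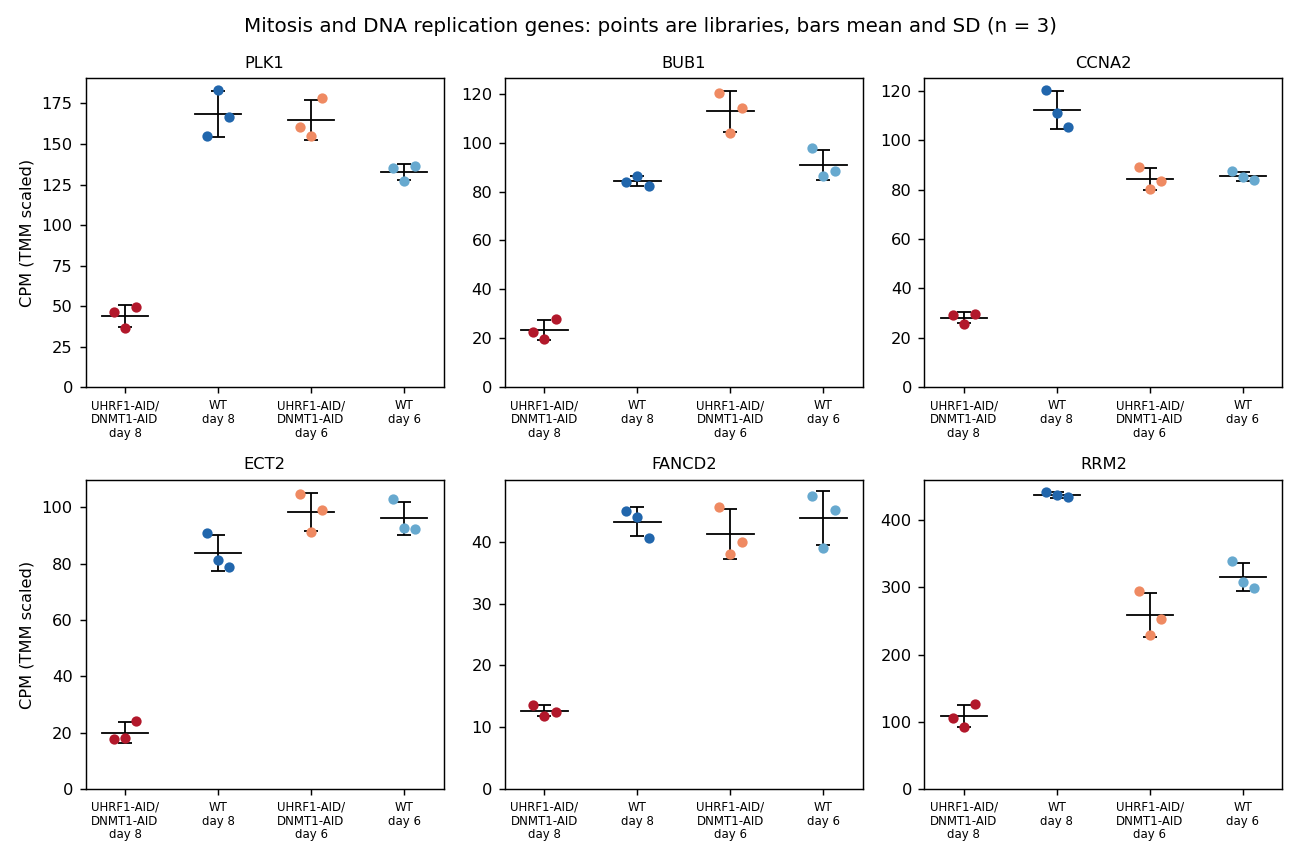
CPM of 3 mitosis kinases and regulators, a cytokinesis factor and 2 genes of DNA replication and repair in each library; points are libraries, lines are means and error bars SDs (n = 3). The UHRF1-AID/DNMT1-AID libraries of day 8 are below all the others in each panel, for example PLK1 at 36.5 to 49.8 CPM against 127 CPM or more elsewhere.

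The genes of DNA replication and G1/S were affected earlier and by less. Of 60 tested members, 51 had a lower effect on day 8 than on day 6 and 0 a higher one, with 22 lower by more than 2-fold and a median change of -0.82. Unlike the mitosis genes, 39 of them were already called below WT on day 6, and on day 8 all 60 were. Of all 15415 genes, 3372 were called below WT on day 6 and 5060 on day 8. Summed expression was 2525, 2320 and 2824 CPM in UHRF1-AID/DNMT1-AID and 5611, 5754 and 5634 CPM in WT on day 8, and 3829, 3332 and 3678 CPM in UHRF1-AID/DNMT1-AID and 4625, 4379 and 4512 CPM in WT on day 6. The degron libraries were below WT on both days. WT itself was higher on day 8 than on day 6, with 35 members called higher there, beside 2709 of all genes. The median difference between day 8 and day 6 was -0.53 in UHRF1-AID/DNMT1-AID and 0.34 in WT.

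FANCD2, a protein of DNA crosslink repair, stood at 13.6, 11.8 and 12.5 CPM in UHRF1-AID/DNMT1-AID and 45, 44.1 and 40.6 CPM in WT on day 8, and at 45.7, 38 and 40 CPM in UHRF1-AID/DNMT1-AID and 47.4, 39 and 45.1 CPM in WT on day 6. The lines overlapped on day 6 only, and the change of effect was -1.68 ± 0.14 (adjusted p = 3.74e-11). RRM2, the regulated subunit of ribonucleotide reductase, stood at 106, 93 and 127 CPM in UHRF1-AID/DNMT1-AID and 442, 437 and 434 CPM in WT on day 8, and at 294, 229 and 252 CPM in UHRF1-AID/DNMT1-AID and 339, 308 and 299 CPM in WT on day 6. Here the degron libraries were below WT on both days, and the change of effect was -1.72 ± 0.15 (adjusted p = 2.32e-10), of which WT contributed a difference of 0.47 between the days. RFC3, a subunit of the clamp loader, averaged 9.87 ± 0.528 CPM in UHRF1-AID/DNMT1-AID and 31.5 ± 2.53 CPM in WT on day 8, and 18.6 ± 1.69 CPM in UHRF1-AID/DNMT1-AID and 23.7 ± 0.7 CPM in WT on day 6, with a change of effect of -1.33 ± 0.13 (adjusted p = 2.59e-09).

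RRM2 and RFC3 are shown as examples of 2 kinds of promoter in the replication list, with repeated CCAAT boxes and with an E2F site (searched as TTTGGCGC or TTTCCCGC). Capitals mark CCAAT in RRM2 and GCGGGAAA, the E2F letters read on the other strand, in RFC3. The stretches of 150 bases before the RefSeq start are chr2:10122589-10122738 (plus strand) and chr13:33817999-33818148 (plus strand).
RRM2: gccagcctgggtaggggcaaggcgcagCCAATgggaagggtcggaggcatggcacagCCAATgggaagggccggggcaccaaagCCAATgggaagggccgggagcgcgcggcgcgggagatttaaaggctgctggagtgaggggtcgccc
RFC3: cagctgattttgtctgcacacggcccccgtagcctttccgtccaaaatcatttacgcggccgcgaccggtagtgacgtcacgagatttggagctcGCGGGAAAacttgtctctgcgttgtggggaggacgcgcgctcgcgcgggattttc

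The E2F letters were held by 20 of 50 replication genes with an entry (40%), 5.56% of the mitosis genes, 8.83% of all genes with a lower effect above 2-fold, 1.47% of those with a higher effect and 3.6% of the tested genes.

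**Figure D2:**
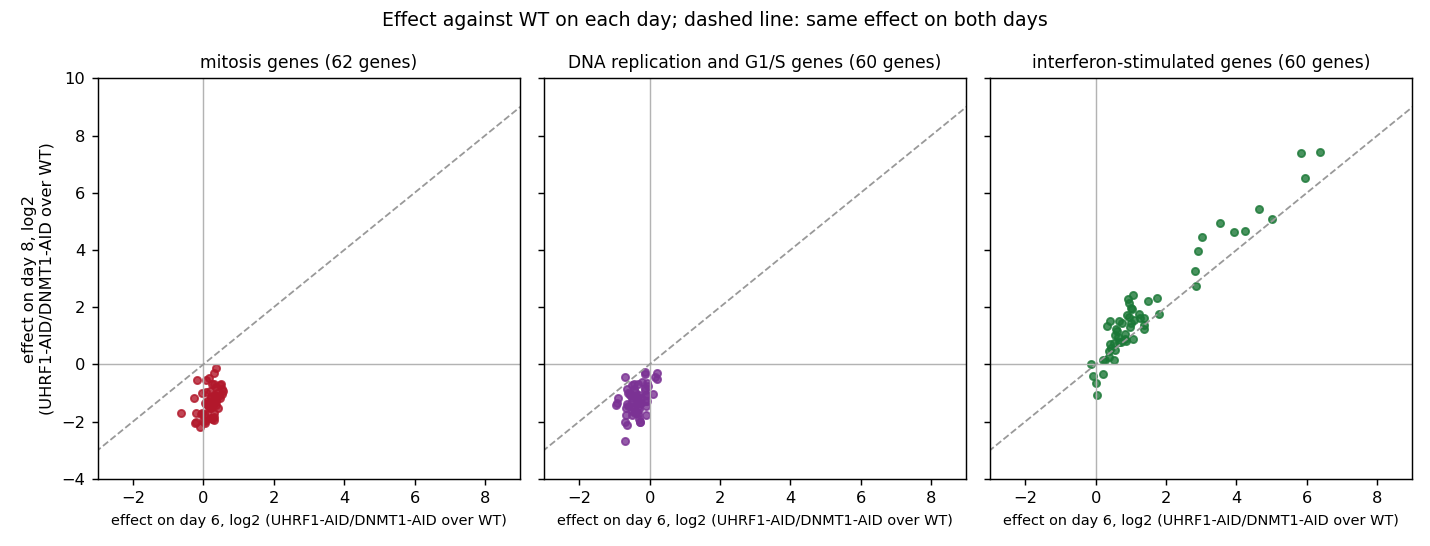
Effect against WT on day 6 (x axis, log2) and on day 8 (y axis, log2) for each tested member of 3 lists; the dashed line marks equal effects. All mitosis genes lie below the line, with a median effect of -1.33 on day 8 and 0.23 on day 6. Most replication genes do, with medians of -1.2 on day 8 and -0.36 on day 6 and changes of up to 0.25, and the interferon-stimulated genes lie on both sides, with medians of 1.48 on day 8 and 0.95 on day 6.

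Inhibitors of cyclin-dependent kinases and markers linked to senescence did not move as 1 group. Of 23 tested members, 2 had a higher and 11 a lower effect on day 8 (8.7% and 47.8%, beside 16.3% and 15.7% of all genes). The median change of the list was -0.34. CDKN1C, which encodes the inhibitor p57, stood at 112, 223 and 122 CPM in UHRF1-AID/DNMT1-AID and 31.4, 35.4 and 31.3 CPM in WT on day 8, and at 52.8, 41.5 and 41.1 CPM in UHRF1-AID/DNMT1-AID and 24.2, 23.6 and 26.6 CPM in WT on day 6. The degron libraries were above WT on both days and highest on day 8, where replicate 2 was far above the others, and the change of effect was 1.35 ± 0.23 (adjusted p = 3.64e-05). With a replicate block within each line that call was lost (adjusted p = 0.0711). The other higher member was the histone variant gene H2AJ, at 0.72 ± 0.18 (adjusted p = 0.00277).

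LMNB1, the lamin B1 gene whose mRNA is known to drop in senescent cells, stood at 45.2, 32.4 and 47.1 CPM in UHRF1-AID/DNMT1-AID and 147, 157 and 144 CPM in WT on day 8, and at 105, 99.7 and 100 CPM in UHRF1-AID/DNMT1-AID and 142, 135 and 142 CPM in WT on day 6. It was below WT on both days and lower again on day 8, with a change of effect of -1.38 ± 0.20 (adjusted p = 4.59e-06). CDKN2C, which encodes the inhibitor p18, and the pocket protein gene RBL1 had changes of -1.29 ± 0.20 and -1.0 ± 0.17. Among 30 p53 targets 2 had a higher and 8 a lower effect, with a median change of -0.20, beside 16.3% higher and 15.7% lower of all genes. Library-size scaling gave 1 higher and 16 lower and a median of -0.43. BBC3, the pro-apoptotic PUMA gene, averaged 93.8 ± 15.7 CPM in UHRF1-AID/DNMT1-AID and 45.4 ± 0.934 CPM in WT on day 8, and 51.4 ± 7.76 CPM in UHRF1-AID/DNMT1-AID and 52.2 ± 7.15 CPM in WT on day 6, a change of 1.07 ± 0.22 (adjusted p = 0.000438). MDM2, the ubiquitin ligase of p53, had a change of -0.70 ± 0.12 (adjusted p = 4.64e-05).

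Transcripts of the mitochondrial genome were higher on day 8 in the degron line. Of the 13 protein genes encoded there, which are core subunits of the respiratory chain and ATP synthase, 12 had a higher effect on day 8 than on day 6, each by more than 2-fold, and the median change was 1.54. All 13 were called above WT on day 8 and 0 on day 6, beside 5499 and 2932 of all 15415 genes. On day 6 their median effect was 0.07. MT-CO1, a catalytic subunit of cytochrome c oxidase, stood at 25250, 28810 and 19390 CPM in UHRF1-AID/DNMT1-AID and 5400, 6593 and 6551 CPM in WT on day 8, and at 6794, 5612 and 6898 CPM in UHRF1-AID/DNMT1-AID and 5135, 5000 and 5499 CPM in WT on day 6. All day 8 degron libraries were far above WT, while on day 6 all 3 were above WT by little, and the change of effect was 1.68 ± 0.38 (adjusted p = 0.00121). MT-ND6, encoded on the other strand of the mitochondrial genome, had a change of 2.08 ± 0.46 (adjusted p = 0.000996). MT-ND3, another subunit of complex I, had a change of 1.77 ± 0.29 (adjusted p = 3.67e-05). The mitochondrial share of reads given above counts these genes only, so 1 shift in that share moves all of them, and they are not independent of each other.

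Nuclear genes for oxidative phosphorylation did not show the same size of change. Of 42 tested, 18 had a higher and 8 a lower effect (42.9% and 19%, beside 16.3% and 15.7% of all genes). The change was above 2-fold for 1 of them, and the median change was 0.27. COX5B, a nuclear subunit of cytochrome c oxidase, averaged 225 ± 14.9 CPM in UHRF1-AID/DNMT1-AID and 113 ± 14.7 CPM in WT on day 8, and 72.1 ± 10.9 CPM in UHRF1-AID/DNMT1-AID and 75.5 ± 10.8 CPM in WT on day 6, a change of 1.05 ± 0.20 (adjusted p = 0.000104). UQCRC2, a core subunit of complex III, went the other way, with 65.2 ± 3.48 CPM in UHRF1-AID/DNMT1-AID and 143 ± 2.09 CPM in WT on day 8, and 99.5 ± 2.93 CPM in UHRF1-AID/DNMT1-AID and 120 ± 4.81 CPM in WT on day 6, a change of -0.86 ± 0.11 (adjusted p = 3.05e-07). Scaling by library size gave 14 higher and 13 lower members and a median of 0.04.

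Of 79 cytosolic ribosomal protein genes, 39 had a higher effect on day 8 and 1, RPL21, a lower one, with a median change of 0.40. These are 49.4% and 1.27%, beside 16.3% and 15.7% of all genes. Both lines had more of these mRNAs on day 8 than on day 6. There were 75 called higher in UHRF1-AID/DNMT1-AID and 75 in WT, beside 4588 and 2709 of all 15415 genes. The median differences were 0.91 in UHRF1-AID/DNMT1-AID and 0.52 in WT. RPL28 stood at 1646, 1604 and 1864 CPM in UHRF1-AID/DNMT1-AID and 837, 902 and 918 CPM in WT on day 8, and at 602, 618 and 635 CPM in UHRF1-AID/DNMT1-AID and 591, 640 and 619 CPM in WT on day 6. The lines overlapped on day 6 and were separated on day 8, with a change of effect of 0.94 ± 0.11 (adjusted p = 8.16e-08). Library-size scaling left 26 members higher and 5 lower, with a median of 0.17. RPL21 has many processed copies in the genome, so its value is uncertain where reads could be shared with them. How multimapping reads were counted is not given in the sources used here. Sharing with such copies was not checked for the other members either.

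**Figure D3:**
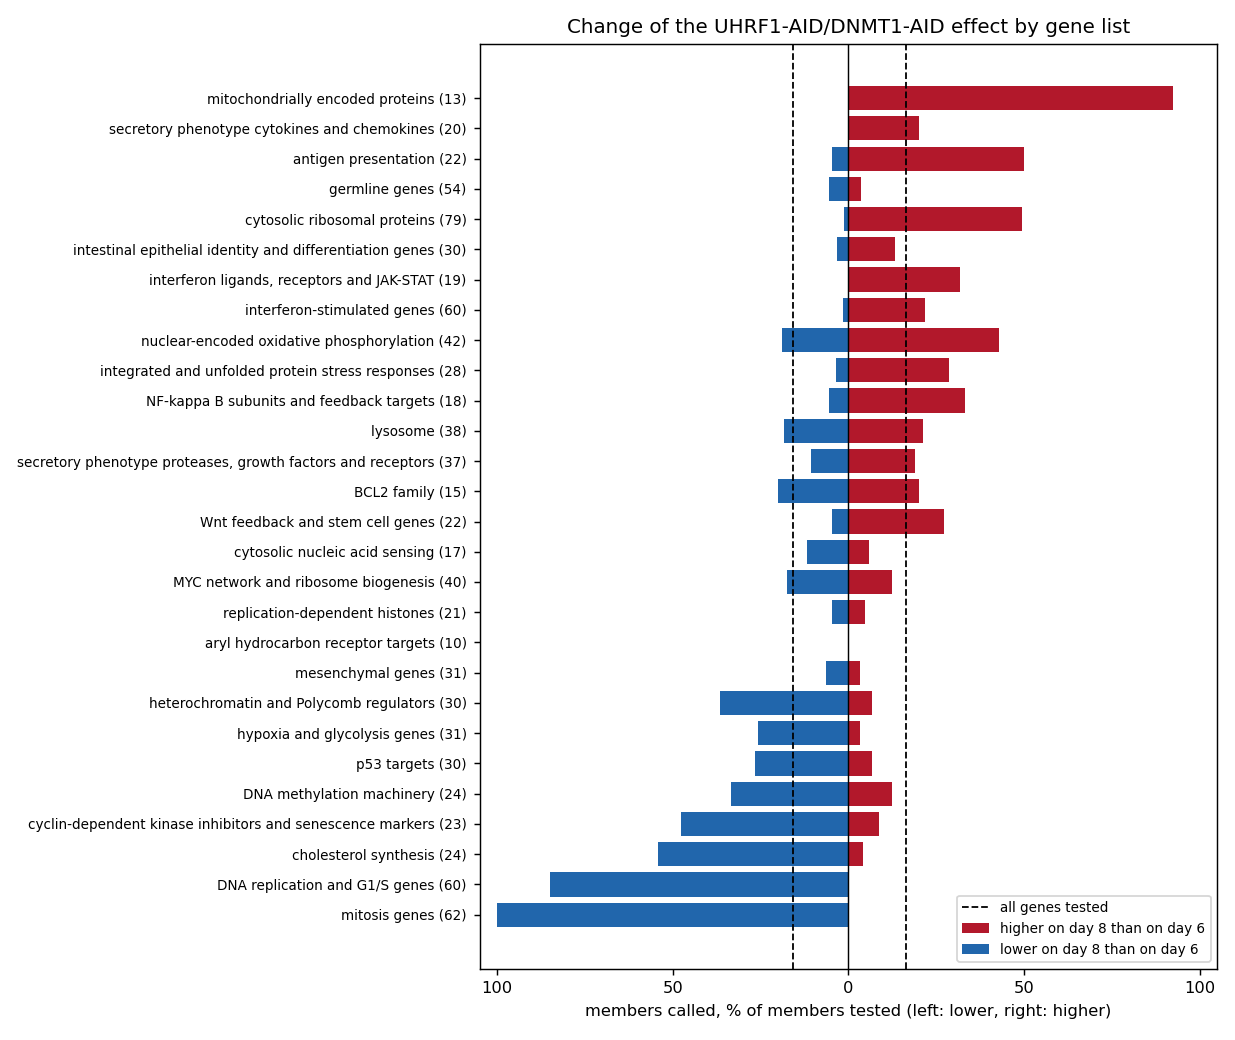
Share of tested members of each gene list whose effect was called higher (right) or lower (left) on day 8 than on day 6, with the number tested in parentheses; dashed lines give 16.3% and 15.7% of all genes tested. The bar of the mitosis list reaches 100% on the left and that of the mitochondrially encoded proteins 92.3% on the right.

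Interferon-stimulated genes were already raised on day 6. Of 60 tested, 51 were called above WT on day 8 and 48 on day 6, beside 5499 and 2932 of all 15415 genes. Their median effects were 1.48 on day 8 and 0.95 on day 6. The change between the days was called as higher for 13 (21.7%) and as lower for 1, beside 16.3% and 15.7% of all genes, with a median change of 0.36. Scaling by library size gave 8 higher and 4 lower. The called members included the IFITM genes, membrane proteins that restrict virus entry, and ISG20, an exonuclease. IFITM1 stood at 4944, 5256 and 4441 CPM in UHRF1-AID/DNMT1-AID and 150, 162 and 165 CPM in WT on day 8, and at 1871, 1713 and 1272 CPM in UHRF1-AID/DNMT1-AID and 137, 143 and 140 CPM in WT on day 6. The lines were far apart on both days and the degron libraries highest on day 8, with effects of 4.94 and 3.53 and a change of 1.41 ± 0.28 (adjusted p = 0.000257).

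IFITM3 stood at 4823, 4823 and 4695 CPM in UHRF1-AID/DNMT1-AID and 1594, 1715 and 1731 CPM in WT on day 8, and at 1939, 1983 and 1839 CPM in UHRF1-AID/DNMT1-AID and 1434, 1508 and 1434 CPM in WT on day 6, with a change of effect of 1.11 ± 0.16 (adjusted p = 1.69e-06). ISG20 averaged 77.5 ± 8.28 CPM in UHRF1-AID/DNMT1-AID and 14.4 ± 1.95 CPM in WT on day 8, and 24.8 ± 3.98 CPM in UHRF1-AID/DNMT1-AID and 11.9 ± 0.243 CPM in WT on day 6, a change of 1.37 ± 0.23 (adjusted p = 3.44e-05). HERC6, a ubiquitin ligase of the HERC family, was the 1 member with a lower effect. It stood at 25.7, 26 and 24.9 CPM in UHRF1-AID/DNMT1-AID and 54.6, 53.6 and 51.3 CPM in WT on day 8, and at 60.4, 47.5 and 56.9 CPM in UHRF1-AID/DNMT1-AID and 55.5, 49.9 and 55.6 CPM in WT on day 6, a change of -1.09 ± 0.15 (adjusted p = 1.16e-06).

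The promoters of IFITM3 and IFITM1 are shown because both hold the core of the interferon-stimulated response element, searched as GAAANNGAA and given in capitals. They are the 150 bases before the RefSeq start, chr11:320861-321010 (minus strand) and chr11:313890-314039 (plus strand). A further match in IFITM1, GAAACTGAA, runs past the end of the printed stretch and is left in lower case.
IFITM3: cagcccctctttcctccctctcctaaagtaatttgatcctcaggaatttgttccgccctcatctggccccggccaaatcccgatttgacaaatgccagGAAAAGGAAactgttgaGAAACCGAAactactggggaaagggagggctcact
IFITM1: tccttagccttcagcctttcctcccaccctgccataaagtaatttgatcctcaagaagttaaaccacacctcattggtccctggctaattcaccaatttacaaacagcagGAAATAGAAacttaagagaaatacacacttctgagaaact

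The letters occurred on either strand in 32 of 47 interferon-stimulated genes with a promoter entry (68.1%), in 6.39% of the genes with a higher effect above 2-fold, in 10.2% of those with a lower effect and in 6.4% of all tested genes with an entry.

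Upstream of these genes, 6 of 19 tested members of the interferon ligand, receptor and JAK-STAT list had a higher effect on day 8 and 0 a lower one. These are 31.6% and 0%, beside 16.3% and 15.7% of all genes, and library-size scaling gave 4 higher and 2 lower members. IRF7, the transcription factor that amplifies type I interferon, averaged 629 ± 69.9 CPM in UHRF1-AID/DNMT1-AID and 127 ± 6.1 CPM in WT on day 8, and 350 ± 36.1 CPM in UHRF1-AID/DNMT1-AID and 161 ± 8.49 CPM in WT on day 6, a change of 1.19 ± 0.20 (adjusted p = 2.56e-05). IRF3 and IRF1 followed with 0.54 ± 0.10 and 0.60 ± 0.13. Among 17 sensors and regulators of cytosolic nucleic acid, 1 had a higher effect, the DNA exonuclease gene TREX1 at 0.88 ± 0.19 (adjusted p = 0.000504), and 2 a lower one, that is 5.88% and 11.8% beside 16.3% and 15.7% of all genes. The call of TREX1 was lost with offsets for GC content and length (0.45, adjusted p = 0.0981). The members with a lower effect were the RNA editing enzyme gene ADAR at -0.57 ± 0.14 (adjusted p = 0.00214) and TRIM25, a ubiquitin ligase that acts on RIG-I, at -0.46 ± 0.13 (adjusted p = 0.00517).

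Antigen presentation genes had a higher effect on day 8 in 11 of 22 tested members (50%) and a lower one in 1 (4.55%), beside 16.3% and 15.7% of all genes. The median change of the list was 0.66. CD74, the invariant chain of MHC class II, stood at 105, 134 and 85.5 CPM in UHRF1-AID/DNMT1-AID and 7, 6.48 and 5.84 CPM in WT on day 8, and at 40.5, 36.3 and 34.3 CPM in UHRF1-AID/DNMT1-AID and 7.67, 6.97 and 7.45 CPM in WT on day 6. The lines were separated on both days and the degron libraries highest on day 8, with a change of effect of 1.75 ± 0.25 (adjusted p = 1.94e-06). HLA-B, a classical MHC class I gene, had a change of 1.04 ± 0.22 (adjusted p = 0.000537). Reads of such polymorphic genes can be shared with similar family members, so this value is uncertain. The member with a lower effect was ERAP1, a peptide-trimming protease, at -0.39 ± 0.15 (adjusted p = 0.0408). Its call was lost in several alternatives, and library-size scaling left 7 members of the list higher and 1 lower.

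**Figure D4:**
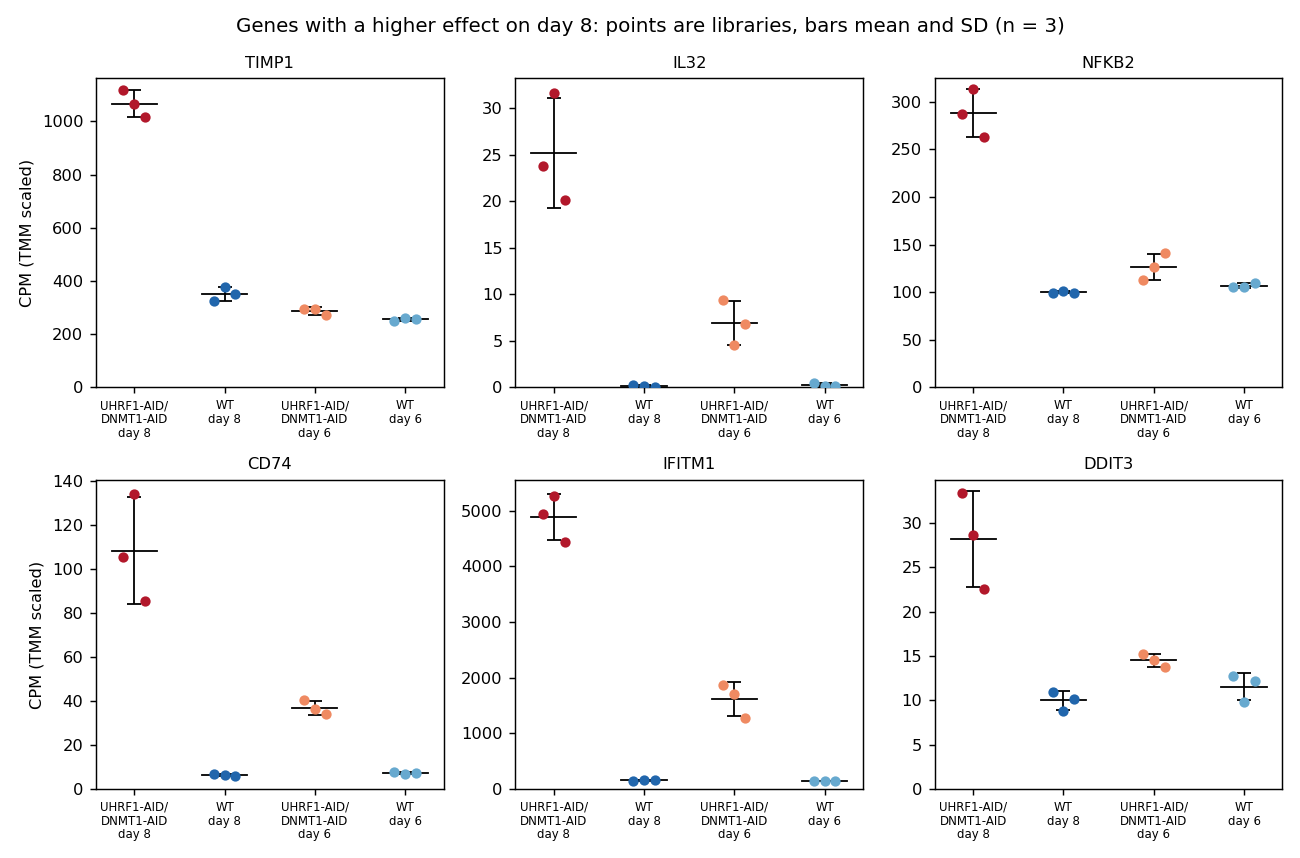
CPM of 6 genes with a higher effect on day 8, from the SASP, NF-kappa B, antigen presentation, interferon and stress lists, in each library; points are libraries, lines are means and error bars SDs (n = 3). The UHRF1-AID/DNMT1-AID libraries of day 8 are the highest in each panel, for example NFKB2 at 263 to 314 CPM against 141 CPM or less elsewhere.

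Among secreted factors of the SASP the called changes were few. Of 20 cytokines and chemokines tested, 4 had a higher effect on day 8 (20%, beside 16.3% of all genes) and 0 a lower one, with a median change of 0.86 and few reads for several members. IL32, a proinflammatory cytokine gene, stood at 23.8, 31.6 and 20.1 CPM in UHRF1-AID/DNMT1-AID and 0.229, 0.18 and 0.0337 CPM in WT on day 8, and at 9.34, 4.57 and 6.78 CPM in UHRF1-AID/DNMT1-AID and 0.46, 0.175 and 0.172 CPM in WT on day 6. The lines were far apart on both days, and the change of effect was 2.82 ± 0.73 (adjusted p = 0.003). Without replicate 1 of WT on day 6 it was 2.2 and no longer called (adjusted p = 0.0599), and WT held few reads on both days. MIF and IL11 had changes of 0.72 ± 0.14 and 1.24 ± 0.36. Offsets for GC content and length ended the call of MIF (adjusted p = 0.635), and with a replicate block added its change was close to 0. The call of IL11 was lost with these offsets and the block (0.94, adjusted p = 0.053).

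Of 37 SASP proteases, growth factors and receptors, 7 had a higher and 4 a lower effect (18.9% and 10.8%, beside 16.3% and 15.7% of all genes). Their median change of 0.14 became -0.09 under library-size scaling, which gave 1 higher and 7 lower, and offsets for GC content and length gave 4 and 5. TIMP1, an inhibitor of metalloproteinases, stood at 1118, 1064 and 1018 CPM in UHRF1-AID/DNMT1-AID and 325, 378 and 351 CPM in WT on day 8, and at 294, 295 and 271 CPM in UHRF1-AID/DNMT1-AID and 251, 261 and 256 CPM in WT on day 6. The lines lay close together on day 6 and far apart on day 8, with a change of effect of 1.44 ± 0.13 (adjusted p = 6.14e-10). EREG, which encodes the EGF receptor ligand epiregulin, went the other way. It stood at 16.4, 10.6 and 21.3 CPM in UHRF1-AID/DNMT1-AID and 608, 556 and 511 CPM in WT on day 8, and at 42.9, 53.8 and 55.8 CPM in UHRF1-AID/DNMT1-AID and 530, 487 and 468 CPM in WT on day 6, with effects of -5.11 and -3.29 and a change of -1.83 ± 0.19 (adjusted p = 6.28e-09). MMP7, a matrix metalloproteinase, had 0 reads over the 3 degron libraries of day 8 and 31 reads over the 3 WT libraries of that day, so WT was at least 9.53-fold higher against a limit of 3 reads over the group.

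In the NF-kappa B list 6 of 18 members had a higher effect and 1 a lower one (33.3% and 5.56%, beside 16.3% and 15.7% of all genes). Their median change of 0.18 became -0.05 under library-size scaling, where 4 were higher and 1 lower. NFKB2, the precursor of the p52 subunit of the noncanonical pathway, stood at 288, 314 and 263 CPM in UHRF1-AID/DNMT1-AID and 99.2, 101 and 99.2 CPM in WT on day 8, and at 113, 126 and 141 CPM in UHRF1-AID/DNMT1-AID and 105, 105 and 110 CPM in WT on day 6. The lines were adjacent on day 6 and far apart on day 8, with a change of effect of 1.28 ± 0.14 (adjusted p = 2.17e-08). The inhibitor genes NFKBIB and NFKBIE had changes of 0.61 ± 0.15 and 0.66 ± 0.16, both lost with offsets for GC content and length (adjusted p = 0.0829 and 0.11). NFKB1, which encodes the p50 subunit of the canonical pathway, had a lower effect, with 17.9 ± 2.76 CPM in UHRF1-AID/DNMT1-AID and 39.7 ± 2.47 CPM in WT on day 8, and 29.2 ± 2.52 CPM in UHRF1-AID/DNMT1-AID and 40.6 ± 0.721 CPM in WT on day 6, a change of -0.67 ± 0.17 (adjusted p = 0.00253).

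Stress response genes gave 8 higher and 1 lower member among 28 (28.6% and 3.57%, beside 16.3% and 15.7% of all genes). Their median change was 0.23, and library-size scaling gave 4 higher and 3 lower. DDIT3, the CHOP transcription factor of the integrated stress response, stood at 33.3, 28.6 and 22.6 CPM in UHRF1-AID/DNMT1-AID and 10.9, 8.81 and 10.2 CPM in WT on day 8, and at 15.2, 14.5 and 13.8 CPM in UHRF1-AID/DNMT1-AID and 12.7, 9.78 and 12.2 CPM in WT on day 6. The day 8 degron libraries were above all the others, with a change of effect of 1.17 ± 0.24 (adjusted p = 0.000318). Genes of cholesterol synthesis gave 1 higher and 13 lower members among 24 (4.17% and 54.2%), with a median change of -0.41. IDI1, an isomerase of the isoprenoid steps of the pathway, stood at 34.4, 32.6 and 35.1 CPM in UHRF1-AID/DNMT1-AID and 46.7, 43.8 and 44.9 CPM in WT on day 8, and at 55.3, 47.5 and 44.9 CPM in UHRF1-AID/DNMT1-AID and 40.5, 36.2 and 35.9 CPM in WT on day 6. The degron libraries were all below WT on day 8 and all above WT on day 6, with a change of effect of -0.80 ± 0.14 (adjusted p = 3.45e-05).

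Germline genes, whose promoters are typically methylated in somatic cells, were strongly expressed in the degron line on both days. Of 54 tested, 49 were called above WT on day 8 and 49 on day 6, beside 5499 and 2932 of all 15415 genes. The median effects were 8.7 and 7.92, which rest on WT libraries with few or no reads. Within the degron line alone, 21 members were called as rising between the days and 2 as falling, beside 4588 and 4695 of all genes. Summed expression there averaged 1806 ± 335 CPM on day 8 and 1259 ± 218 CPM on day 6. In WT it averaged 566 ± 17.1 CPM and 455 ± 3.76 CPM. The change of effect was called as higher for 2 and as lower for 3, below the 16.3% and 15.7% of all genes. These low counts do not show that expression had levelled off, since few WT reads leave the change imprecise. Replication-dependent histones gave 1 higher and 1 lower among 21 (4.76% and 4.76%), and aryl hydrocarbon receptor targets 0 and 0 among 10. Mesenchymal genes gave 1 and 2 among 31 (3.23% and 6.45%), and MYC network genes 5 and 7 among 40 (12.5% and 17.5%). Lysosome genes gave 8 and 7 among 38, and BCL2 family genes 3 and 3 among 15. The lysosome shares of 21.1% and 18.4% and the BCL2 family shares of 20% and 20% lay near those of all genes. The methylation machinery gave 3 higher and 8 lower members among 24 (12.5% and 33.3%). Heterochromatin and Polycomb regulators gave 2 and 11 among 30 (6.67% and 36.7%), and hypoxia and glycolysis genes 1 and 8 among 31 (3.23% and 25.8%). Library-size scaling moved these balances towards lower calls. It gave 2 higher and 12 lower lysosome genes, 3 and 12 MYC network genes, 1 and 4 BCL2 family genes, 1 and 4 mesenchymal genes, 1 and 13 genes of the methylation machinery, 0 and 14 heterochromatin and Polycomb regulators and 1 and 13 hypoxia and glycolysis genes. Wnt feedback and stem cell genes gave 6 higher and 1 lower among 22 (27.3% and 4.55%). Intestinal identity genes gave 4 and 1 among 30 (13.3% and 3.33%), beside 16.3% and 15.7% of all genes. WNT6, a secreted Wnt ligand, stood at 23.6, 25.5 and 31.6 CPM in UHRF1-AID/DNMT1-AID and 4.49, 5.08 and 5.09 CPM in WT on day 8, and at 10.4, 13.6 and 14.7 CPM in UHRF1-AID/DNMT1-AID and 6.82, 7.19 and 8.34 CPM in WT on day 6. The lines were separated on both days and further apart on day 8, with a change of effect of 1.67 ± 0.23 (adjusted p = 1.01e-06). SUZ12, a core subunit of Polycomb repressive complex PRC2, averaged 38.5 ± 2.96 CPM in UHRF1-AID/DNMT1-AID and 72.8 ± 3.15 CPM in WT on day 8, and 77.9 ± 3.09 CPM in UHRF1-AID/DNMT1-AID and 75 ± 4.22 CPM in WT on day 6, a change of -0.98 ± 0.11 (adjusted p = 6.52e-08).

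The 12 highest changes among genes at a mean of 5 CPM or more were those of PDCD1, RCN3, ALPG, TUBA3D, APOBEC3G, FBLN2, IL32, YJEFN3, ENG, GPX3, DYRK1B and FKBP11, and 7 of them were at or below 0.5 CPM on average in WT on both days. PDCD1, which encodes the immune checkpoint receptor PD-1, stood at 20.7, 21.7 and 19.9 CPM in UHRF1-AID/DNMT1-AID on day 8, where the 3 WT libraries held 0 reads, and at 6.43, 8.31 and 7.73 CPM in UHRF1-AID/DNMT1-AID and 0.0383, 0.132 and 0.137 CPM in WT on day 6. On day 8 the degron line was at least 511-fold higher, against a limit of 3 reads over the WT group, and within the degron line day 8 exceeded day 6 by 1.47 on the log2 scale. APOBEC3G, a cytidine deaminase that restricts retroviruses, stood at 38.4, 40.6 and 24.4 CPM in UHRF1-AID/DNMT1-AID and 0.0458, 0.045 and 0.202 CPM in WT on day 8, and at 15.8, 18.1 and 11.9 CPM in UHRF1-AID/DNMT1-AID and 0.153, 0.439 and 0.549 CPM in WT on day 6, with a change of effect of 2.95 ± 0.74 (adjusted p = 0.00239).

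Not all of the highest changes were gains in the degron line. TUBA3D, an alpha tubulin gene of the testis, averaged 19.4 ± 5.16 CPM in UHRF1-AID/DNMT1-AID on day 8 and 21.2 ± 5.62 CPM on day 6, and FBLN2, the matrix protein fibulin-2, 36.4 ± 11.8 CPM on day 8 and 40.9 ± 3.14 CPM on day 6, so that the change of effect came from WT, where TUBA3D had 1 read over the 3 libraries of day 8. In ENG, the TGF-beta co-receptor endoglin, both lines contributed, with 39.9, 49.8 and 42.5 CPM in UHRF1-AID/DNMT1-AID and 0.641, 0.36 and 0.877 CPM in WT on day 8, and 27.5, 22.5 and 26.5 CPM in UHRF1-AID/DNMT1-AID and 2.45, 1.53 and 2.03 CPM in WT on day 6. No library of one line reached the other on either day, and the change of effect was 2.42 ± 0.33 (adjusted p = 6.47e-07). Leaving out single WT libraries ended some of these calls. For PDCD1 (adjusted p = 0.0601) and ALPG (adjusted p = 0.0666) it was replicate 3 of WT on day 6. For RCN3 it was replicate 2 of WT on day 6 (adjusted p = 0.777) or on day 8 (adjusted p = 0.0513), and for TUBA3D replicate 1 (adjusted p = 0.0508) or 2 (adjusted p = 0.0523) of WT on day 8.

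The 12 lowest changes were those of ENSG00000273167, ARHGAP19-SLIT1, FAM83D, APOM, ENSG00000288646, CKAP2L, HASPIN, PLK1, ENSG00000288593, KIF14, ZFP91-CNTF and BUB1, so 6 of the 12 act in mitosis. ARHGAP19-SLIT1 and ZFP91-CNTF are readthrough models that share exons with their neighbours, and together with the unnamed genes their values are uncertain. APOM, the apolipoprotein that carries sphingosine-1-phosphate, stood at 4.03, 3.61 and 3.02 CPM in UHRF1-AID/DNMT1-AID and 20.8, 23.2 and 23.8 CPM in WT on day 8, and at 16.1, 17 and 18.4 CPM in UHRF1-AID/DNMT1-AID and 21.9, 20.8 and 21.6 CPM in WT on day 6. The degron libraries were below WT on both days, by little on day 6, and the change of effect was -2.35 ± 0.30 (adjusted p = 6.23e-07).

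The difference between day 8 and day 6 in UHRF1-AID/DNMT1-AID was also set against the same difference in the single degron lines. Against UHRF1-AID, 1677 genes (10.9%) were called, 761 with a higher and 916 with a lower change in the double line, and against DNMT1-AID 451 genes (2.93%), 189 higher and 262 lower. Mitosis genes were lower on day 8 than on day 6 in every degron line, with median differences of -1.53 in UHRF1-AID/DNMT1-AID, against -0.81 in the UHRF1-AID line, -0.85 in the DNMT1-AID line and 0.05 for WT. By the test of the difference itself, 46 of the 62 fell further in UHRF1-AID/DNMT1-AID than in UHRF1-AID, and 37 further than in DNMT1-AID. For PLK1 the difference between the lines was -0.90 (adjusted p = 0.000181) against UHRF1-AID and -0.84 (adjusted p = 0.00175) against DNMT1-AID. Both comparisons use the same UHRF1-AID/DNMT1-AID libraries.

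Replication genes gave a median difference between the days of -0.53 in UHRF1-AID/DNMT1-AID, against 0.07 in the UHRF1-AID line, -0.24 in the DNMT1-AID line and 0.34 for WT, with 37 of 60 lower in the double line against UHRF1-AID and 11 against DNMT1-AID. TIMP1 and NFKB2 rose more in UHRF1-AID/DNMT1-AID than in UHRF1-AID, by 0.88 (adjusted p = 7e-05) and 0.89 (adjusted p = 0.000124), and than in DNMT1-AID, by 0.83 (adjusted p = 0.000711) and 0.80 (adjusted p = 0.0018). For the mitochondrially encoded proteins the median differences between the days were 1.45 in UHRF1-AID/DNMT1-AID, against 1.16 in the UHRF1-AID line, 0.94 in the DNMT1-AID line and -0.08 for WT, and 0 of 13 were called between the double and either single line. Interferon-stimulated genes had 1 of 60 called lower against UHRF1-AID and 1 higher against DNMT1-AID. The counts against the single lines depended on single libraries. The lowest counts were 27 higher and 105 lower genes against DNMT1-AID, both without replicate 1 of DNMT1-AID on day 8, and 393 higher and 585 lower genes against UHRF1-AID, both without replicate 1 of UHRF1-AID/DNMT1-AID on day 6.

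**Figure D5:**
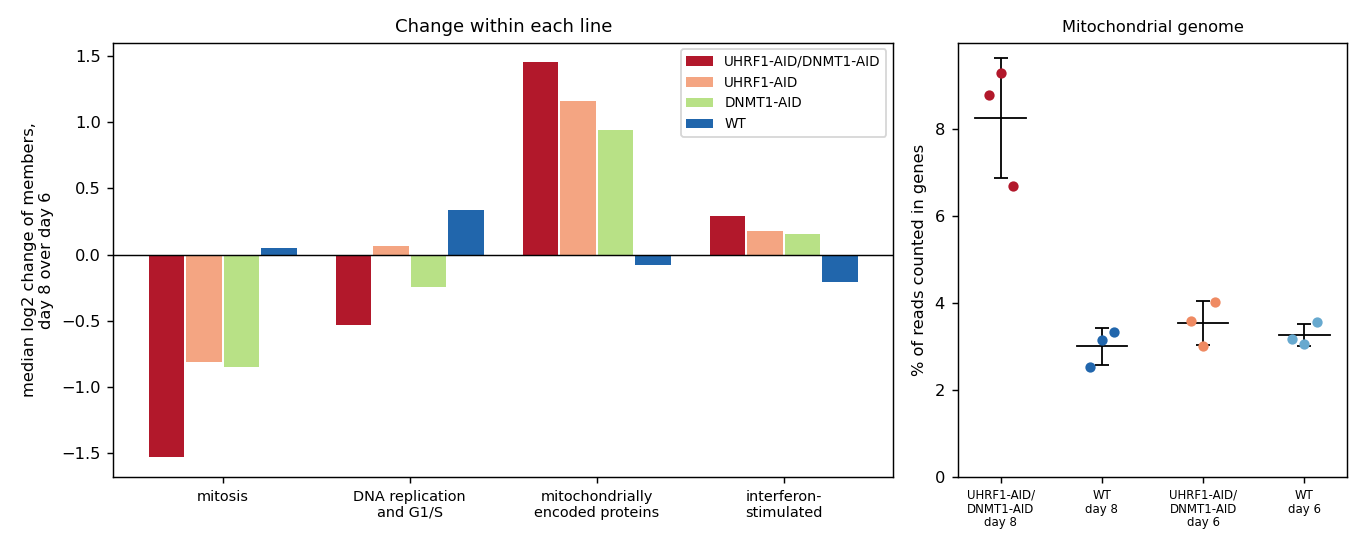
Left, median difference between day 8 and day 6 (log2) over the members of 4 lists in each line. Right, share of reads from protein-coding genes of the mitochondrial genome in the 12 libraries, with points for libraries, lines for means and error bars for SDs (n = 3). The mitosis median is -1.53 in UHRF1-AID/DNMT1-AID, and the mitochondrial share is 6.7% to 9.29% in that line on day 8 and 4.03% or less in the other groups.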

How the data were processed

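RNA-seq read counts per gene were deposited by the authors, who per the labels aligned to hg38 with STAR and counted with featureCounts, and per the methods trimmed reads with Trim Galore; the strand setting, annotation and treatment of multimapping reads are not given in the sources used here. Gene names were taken from GENCODE v44 for 60462 of 60648 IDs. The model was edgeR 4.0.16 (robust quasi-likelihood, TMM, filterByExpr with a minimum count of 10, R 4.3.3) over all 36 libraries with a mean for each line and day, from which each comparison was drawn, with Benjamini-Hochberg adjustment over 15415 protein-coding genes. Library totals were 21588262 to 30559549 reads. A gene was named if it was tagged, among the 12 highest or 12 lowest changes at a mean CPM of 5 or more with no overlap between days, or among up to 3 members of smallest p in each direction of each list. The members and lists were chosen with earlier results of these data known. In simulated data with 15224 genes, changes were put only into genes at a mean CPM of 5 or more, 66 or 67 for each fold. The model called 47.8% of those changed 1.5-fold, 91% of those changed 2-fold and 100% of those changed 4-fold. Genes with fewer reads were not covered by these rates. Alternatives were DESeq2 1.42.0, other scalings and filters, GC content and gene length offsets, replicate blocks and leaving out each library. Promoter sequences are from RefSeq (GRCh38.p14). Results for some named genes are not reported here.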

Additional observations from a re-analysis of the deposited data

Results flagged for a closer look

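Several results were picked out because the difference between day 8 and day 6 in UHRF1-AID/DNMT1-AID differed from that in another line by the test of the difference itself. Against WT these were the 580 genes with a higher and 401 with a lower effect above 2-fold, against UHRF1-AID 761 higher and 916 lower genes, and against DNMT1-AID 189 higher and 262 lower genes. Single genes that differed from both single degron lines included FAM83D (-1.33 against UHRF1-AID and -1.18 against DNMT1-AID on the log2 scale), CKAP2L (-1.22 and -1.04), APOM (-1.26 and -1.27), YJEFN3 (1.16 and 1.98) and IL32 (1.32 and 1.56). ENSG00000273167 (-1.97 and -1.94), ENSG00000288646 (-1.42 and -1.16) and the readthrough gene ARHGAP19-SLIT1 (-1.75 and -1.05) did so as well, and their models overlap other genes. For MMP7 the fitted differences of -7.62 and -5.17 rest on 0 reads in UHRF1-AID/DNMT1-AID on day 8 and are no measure of size.

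Outside the protein-coding genes, counts come from a separate fit over all gene types. There 247 long non-coding RNAs had a higher and 475 a lower effect on day 8 by more than 2-fold among 4594 tested (483 and 664 at any fold). The main fit called 580 and 401 of 15415 protein-coding genes above 2-fold, and 2520 and 2413 at any fold. In the fit over all gene types, 21 of 21 mitochondrial tRNA genes had a higher effect by more than 2-fold. They lie on the same genome as the 13 protein genes above and are no independent result.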

How the results depend on the processing

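Of 3337 values of 134 named genes under the alternatives, 3207 kept their direction and side of the threshold, 125 lost the call, 3 gained one and 2 turned. The 2 were MIF at -0.0025 (adjusted p = 1.0) and BAD at -0.0069 (adjusted p = 0.993) under GC content and gene length offsets with a replicate block. For the counts of higher and lower genes above 2-fold, in place of 580 and 401, library size alone gave 294 and 777. GC content and gene length offsets gave 336 higher, these with a replicate block 330 higher, and a test against 1.5-fold (glmTreat) 211 higher. The fit over all gene types gave 930 and 1057, but it counts non-coding genes as well. It kept 514 of the 580 and all of the 401. For any fold, in place of 2520 and 2413, library size gave 1275 and 4294 and glmTreat 239 and 343. Against UHRF1-AID, in place of 761 and 916, library size gave 345 and 2153, the offsets 318 higher and all gene types 1480 lower. Against DNMT1-AID, in place of 189 and 262, library size gave 92 and 777, DESeq2 320 and 415, the offsets 103 higher and all gene types 450 lower. The causes were not tested. Of all calls above 2-fold the higher ones made up 59.1%, against 27.5% with library size and 46.6% with the offsets. Among all genes called at any fold, 48 changed sign under the offsets and 110 under the offsets with a replicate block. Keeping only genes at 1 CPM or more in WT on both days, chosen after seeing the data, gave 392 higher and 376 lower genes above 2-fold.

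Leaving out 1 library gave 453 to 636 higher and 374 to 455 lower genes above 2-fold, and 2064 to 2406 and 2105 to 2522 at any fold. Against UHRF1-AID it gave 393 to 860 higher and 585 to 1176 lower genes, with 393 and 585 without UHRF1-AID/DNMT1-AID day 6 replicate 1 and 498 higher without day 8 replicate 2. Against DNMT1-AID it gave 27 to 257 higher and 105 to 534 lower genes. There 27 and 105 came without DNMT1-AID day 8 replicate 1, 53 and 107 without UHRF1-AID/DNMT1-AID day 6 replicate 1, 54 and 111 without day 8 replicate 2, 85 and 141 without DNMT1-AID day 6 replicate 2, 83 and 138 without its replicate 3, 115 higher without its replicate 1, and 534 lower without UHRF1-AID/DNMT1-AID day 8 replicate 3. With the replicate number as a block there were 564 higher and 433 lower genes above 2-fold, 543 and 438 with a block within each day and 584 and 440 within each line. Within days, same-numbered libraries correlated by -0.0189 to 0.0654 and differently numbered ones by -0.0676 to 0.0593. Between the days of WT these values were -0.0173 to 0.0302 and -0.0229 to 0.0278. Between the days of UHRF1-AID/DNMT1-AID they were 0.00627 to 0.309 and -0.231 to 0.207, with the highest value for replicate 3. Whether the numbers pair the libraries of that line is not settled by these values.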

Other observations

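Non-coding transcripts were counted in the same libraries and tested in the fit over all gene types. The 21 mitochondrial tRNA genes had a median change of effect of 2.05 and the 2 mitochondrial rRNA genes of 1.76, both called higher. The libraries were made from polyA RNA. Whether these values are more than the shift of the mitochondrial protein genes was not tested. Several long non-coding RNAs with a lower effect lie antisense to cell cycle genes, such as TMPO-AS1 (-2.25 ± 0.20) and HMMR-AS1 (-2.75), while ASMTL-AS1 had a higher effect (1.52 ± 0.17). The strand setting of the counting is not given in the sources used here, so these values cannot be told apart from reads of their partner genes.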
